A study of Mus musculus with 25 samples.

Results

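The genes described here are the Wnt ligands, their frizzled receptors and co-receptors, the secreted and membrane proteins that hold the signal back or amplify it, and the Axin and beta-catenin genes, measured in whole salivary gland RNA of C57BL/6.NOD-Aec1Aec2 males. They were chosen by symbol alone (Wnt, Fzd, Sfrp, Dkk and Rspo followed by their numbers, and Lrp5, Lrp6, Axin1, Axin2, Wif1, Ctnnb1, Lgr4, Lgr5, Lgr6, Znrf3 and Rnf43), among probe sets that carry 1 symbol. This gave 53 genes with 101 probe sets, of 18194 genes measured. One of them, Fzd10os, is an antisense transcript that shares the start of its name with a receptor gene. The strain carries the NOD intervals Aec1 and Aec2 on a C57BL/6 background and develops a Sjögren's syndrome-like disease. All 25 mice carry both intervals. Age was the only difference between groups that the labels give, and the litter of each mouse is not given. Ages were 4, 8, 12, 16 and 20 weeks, with 5 mice and 5 arrays per age. The study describes 4 weeks as before disease, 8 weeks as early pre-clinical and 12 weeks as the influx of leukocytes. It describes 16 weeks as early clinical autoimmunity and 20 weeks as onset of disease with loss of secretion. RNA came from 1 lobe each of the submandibular, sublingual and parotid glands of a mouse, so a value is a mixture of glands and cell types, and C57BL/6 mice without the intervals were not analysed here. Age cannot be told apart from disease stage in this design, and each comparison with 4 weeks shares the same 5 mice of that age.

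Wnt ligands are lipid-modified secreted proteins that bind a frizzled receptor together with Lrp5 or Lrp6. In the canonical branch this halts the complex in which the scaffold Axin holds beta-catenin for destruction, and beta-catenin then enters the nucleus and acts with TCF/LEF factors. Sfrp and Wif1 proteins bind the ligand, Dkk proteins act on the co-receptors, Znrf3 and Rnf43 remove frizzled receptors from the cell surface, and R-spondins, through Lgr4, Lgr5 and Lgr6, remove Znrf3 and Rnf43 in turn. Axin2, Lgr5, Znrf3 and Rnf43 are themselves textbook targets of the canonical branch. In salivary glands the pathway is known from duct formation in the embryo and from the progenitor cells of adult ducts.

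Values are the deposited log2 values per gene. A probe set was taken as expressed when it averaged more than 3.27 across the arrays, the level that divides all probe sets into equal parts. Array medians lay between 3.17 and 3.64. The array of mouse 3 at 20 weeks stood apart: its median correlation with the other arrays of its age was 0.887, against at least 0.973 for the others, and the actin control read 5.36 log2 units more with 3′ than with 5′ probes. This difference, which grows as RNA or cDNA gets shorter, was next highest in mouse 5 at 20 weeks (3.75) and mouse 2 at 16 weeks (3.68). It lay between 1.85 and 3.21 in the other 22 arrays. Among these it was 2.78 to 3.02 on the 12-week arrays and 2.18 to 2.67 on the 4-week arrays, without overlap. Age and this difference cannot be told apart in the comparison of 12 with 4 weeks. Of the 33 Wnt pathway genes with an expressed probe set, 11 had their highest and 5 their lowest value of all 25 mice in mouse 3 at 20 weeks. Over all 11696 genes with an expressed probe set these shares were 19.2% and 32.5%. Results are given with all 25 arrays unless stated. The calls made without the 3 arrays with the largest actin difference are also given, beside a gene or together after the families. In that fit the 20-week values rest on mice 1, 2 and 4 alone, and the 16-week values on mice 1, 3, 4 and 5.

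An expressed probe set was found for 10 of 19 Wnt ligands, 9 of 10 frizzled receptors, both co-receptors, 4 of 5 secreted Wnt binders, 1 of 4 Dickkopf genes, 1 of 4 R-spondins, 2 of 3 Lgr receptors, both receptor ubiquitin ligases and 2 of the 3 Axin and beta-catenin genes. The 20 genes without one had means between 1.93 and 2.94 and a median SD within an age of 0.072, against 0.296 for the 33 with one, so that their values lay near the lower limit of the array with little room to fall. The ligand Wnt8a passed the cutoff through a pair of arrays only. It had 5.83 in mouse 2 at 16 weeks and 5.71 in mouse 3 at 20 weeks, both among the 3 arrays with the largest actin difference, and 2.41 to 3.22 in the other 23 mice.

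The test called Wnt4, Fzd2 and Dkk3 among the members with all arrays, and the counts were higher without the 3 arrays with the largest actin difference, where 20 of 53 members passed at 12 weeks. Without these arrays 19.6% of all genes rose and 23.7% fell at that age. With all arrays in 1 limma fit and an adjusted p under 0.05 over all genes, 0 of 53 rose or fell at 8 weeks against 4 weeks, where 1.48% of all genes rose and 0.78% fell. At 12 weeks 1 rose, Wnt4, and 0 fell, against 5.66% and 1.36% of all genes. At 16 weeks 0 rose and 1 fell, Fzd2, against 1.71% and 1.68%. At 20 weeks 0 rose and 0 fell, against 1.14% and 1.52%. At an unadjusted p under 0.05, 2 were higher (3.77%, against 10% of all genes) and 1 lower (1.89%, against 3.91%) at 8 weeks. At 12 weeks these were 4 (7.55%, against 16.1%) and 2 (3.77%, against 4.67%), at 16 weeks 3 and 3 (5.66% each, against 8.37% and 6.06%), and at 20 weeks 2 and 2 (3.77% each, against 7.12% and 5.29%). The moderated F-test over the 5 ages called 1 member, Dkk3, where it called 4.66% of all genes, and 7 members at an unadjusted p under 0.05 (13.2%, against 18.6% of all genes). The B-statistic of the polynomial fit exceeded 1.5 for 0 members, where it did for 1.92% of all genes. None of the 53 differed between successive ages from 8 weeks on, where 0.0385% of all genes did. At an unadjusted p under 0.05, 1 was higher and 1 lower at 12 against 8 weeks (1.89% each, against 2.62% and 1.25% of all genes). At 16 against 12 weeks 0 were higher and 4 lower (0% and 7.55%, against 2.19% and 5.47%), and at 20 against 16 weeks 2 and 0 (3.77% and 0%, against 3.83% and 3.39%).

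**Figure D1:**
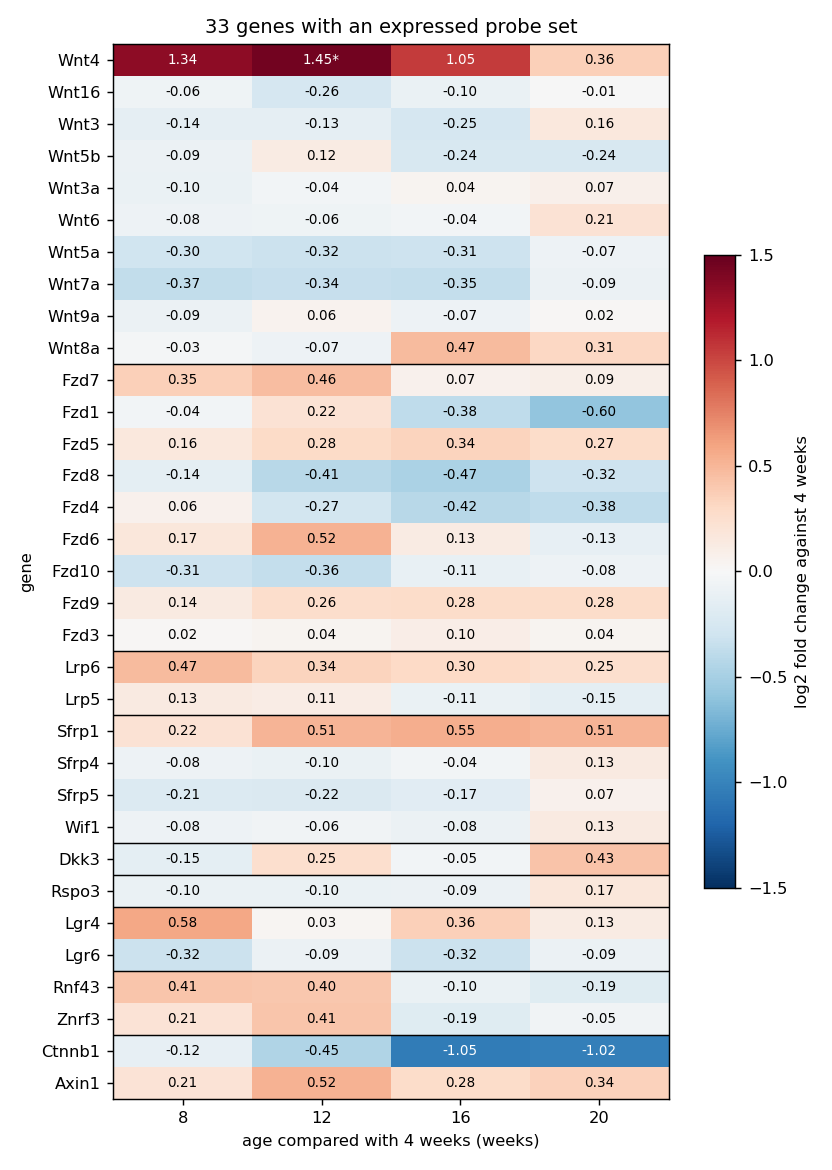
Log2 fold change of each of the 33 genes with an expressed probe set at 8, 12, 16 and 20 weeks against 4 weeks (columns), by family (rows between lines), with all 25 arrays. An asterisk marks an adjusted p under 0.05, which Wnt4 at 12 weeks alone reached in these 33 genes.

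Over the 33 genes with an expressed probe set the median log2 fold change against 4 weeks was -0.063 at 8 weeks, 0.032 at 12 weeks, -0.084 at 16 weeks and 0.069 at 20 weeks. Over all 11696 expressed genes the median was 0.098, 0.14, 0.018 and 0.065 at these ages as deposited. After a further quantile normalization it was -0.030, -0.0055, -0.0028 and 0.0031. As deposited, the change of an expressed member at 12 weeks is thus 0.14 smaller relative to the median expressed gene. Over all genes, with or without an expressed probe set, the median at 12 weeks was -0.031. At 12 weeks the 5 values lay above all 5 at 4 weeks for 3 members, Axin1, Fzd6 and Wnt4 (5.66%, against 12.5% of all genes), and below them for 16 members (30.2%, against 21.1%). Of those 16, 10 had no expressed probe set. At 8 weeks 1 member lay above and 1 below (Wnt4 and Wnt3a), at 16 weeks 1 above and 1 below (Sfrp1 and Fzd4), and at 20 weeks 1 above and 0 below (Dkk3), with 4.58%, 2.22% and 1.22% of all genes above and 4.05%, 2.16% and 1.35% below at these ages.

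Wnt4, a ligand needed for kidney tubules and for side branching of mammary ducts in the mouse, was the member with the largest fitted increase at 8, 12 and 16 weeks. Its log2 value in the 5 mice was 9.0, 8.63, 8.26, 6.86 and 9.19 at 4 weeks. At 8 weeks it was 9.67, 9.79, 9.51, 9.86 and 9.81. At 12 weeks it was 9.84, 10.05, 9.93, 9.86 and 9.52. All 10 mice of 8 and 12 weeks lay above all 5 mice of 4 weeks, and they varied less among themselves. At 16 weeks it was 9.94, 9.03, 9.43, 9.36 and 9.43, and at 20 weeks 9.31, 8.68, 6.79, 9.37 and 9.60. Both ages overlapped the 4-week mice, and the low value at 20 weeks was that of mouse 3. The log2 fold change against 4 weeks was 1.34 at 8 weeks (SE 0.42, adjusted p = 0.101), 1.45 at 12 weeks (adjusted p = 0.0382), 1.05 at 16 weeks (adjusted p = 0.215) and 0.36 at 20 weeks (adjusted p = 0.799), n = 5 mice per age. Its 2 probe sets moved alike: 1450782_at was higher by 1.57 at 8 weeks and 1.71 at 12 weeks, and 1441687_at by 1.11 and 1.19.

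**Figure D2:**
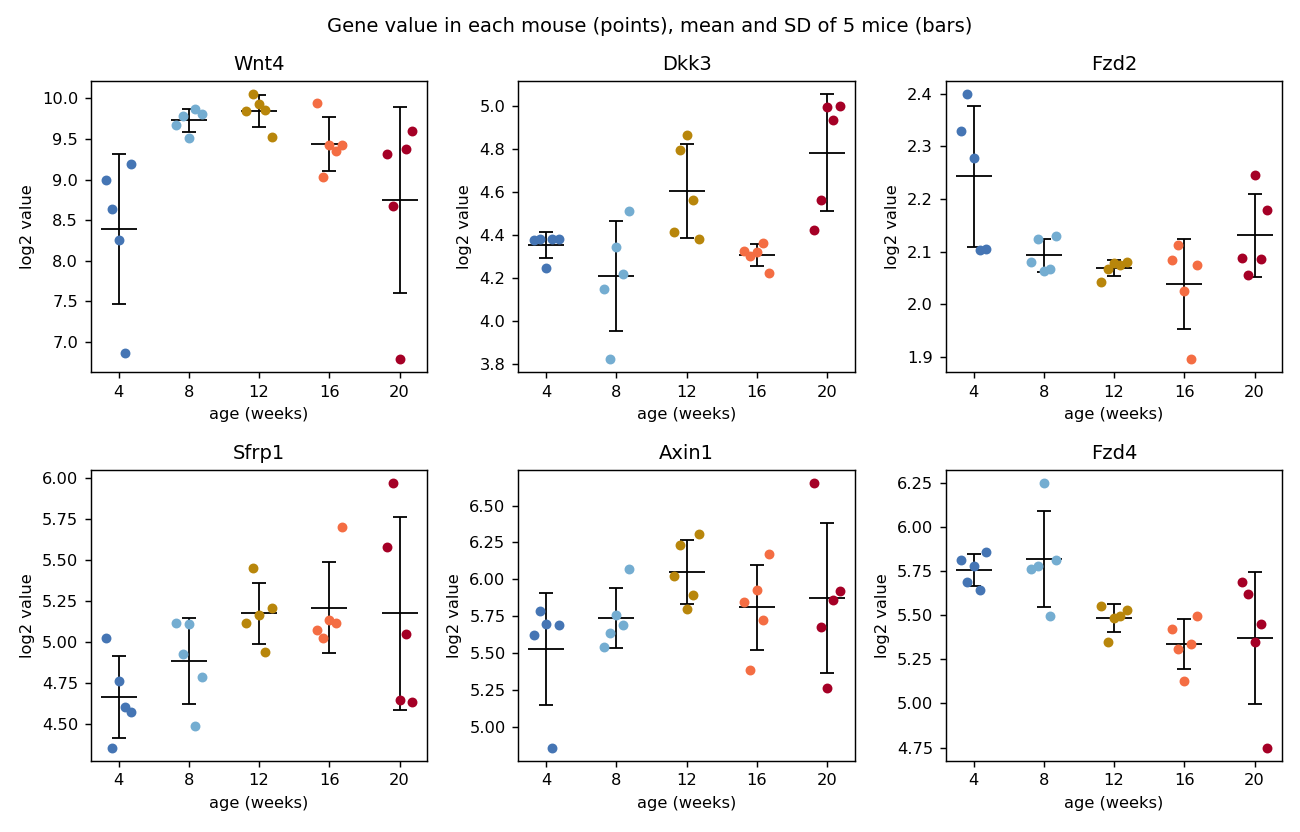
Log2 value of Wnt4, Dkk3, Fzd2, Sfrp1, Axin1 and Fzd4 in each mouse (points) against age in weeks, with the mean and SD of 5 mice as black bars. The vertical axes differ between panels. Wnt4 at 8 and 12 weeks lies above every 4-week mouse, while Fzd2 spans 1.90 to 2.40 in all.

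The call for Wnt4 at 12 weeks depended on single mice. Without mouse 3 at 20 weeks the SD within ages was 0.489, against 0.683 with it, and Wnt4 rose at 8 weeks (adjusted p = 0.0110), 12 weeks (adjusted p = 0.00267) and 16 weeks (adjusted p = 0.0370), and at 20 weeks the difference was 0.85 (adjusted p = 0.104). Without mouse 4 at 4 weeks, the lowest of its age, the difference at 12 weeks was 1.07 (adjusted p = 0.137). The call at 12 weeks was also lost without mouse 2 or 3 at 4 weeks or any 1 of the 5 mice of 12 weeks, with adjusted p between 0.0555 and 0.0972 and differences of 1.40 to 1.53. After quantile normalization the difference at 12 weeks was 1.1 (adjusted p = 0.0229).

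Levels of marker genes of myoepithelial and smooth muscle cells are given beside Wnt4. The mean log2 value of 7 such genes (Acta2, Myh11, Cnn1, Tagln, Krt14, Krt5 and Oxtr) was 7.17 to 8.55 at 4 weeks, 8.87 to 9.06 at 8 weeks, 9.05 to 9.20 at 12 weeks, 8.39 to 9.27 at 16 weeks and 6.67 to 9.10 at 20 weeks. Of these 7 genes Cnn1 and Tagln rose at 12 weeks, by 1.91 and 1.67, and 0 passed at 8, 16 or 20 weeks. Oxtr had no expressed probe set, and the other 6 did. The mean of 7 duct genes was 10.1 to 11.4 at 4 weeks, 11.2 to 11.6 at 8 weeks, 11.6 to 11.7 at 12 weeks, 11.0 to 11.6 at 16 weeks and 9.41 to 11.4 at 20 weeks, with every gene of the list expressed. Of the duct genes 0 rose at any age and 1, the kallikrein Klk1, fell at 12, 16 and 20 weeks. Of all genes 5.66% rose at 12 weeks, and 1.36%, 1.68% and 1.52% fell at 12, 16 and 20 weeks. Mouse 4 at 4 weeks and mouse 3 at 20 weeks had the lowest 2 values of Wnt4 and of both lists. These arrays were low for many genes: they held the lowest value of all mice for 15% and 32.5% of all expressed genes. In such whole-gland RNA fewer cells of a type and less RNA per cell cannot be told apart, and the part of these cell types in the Wnt4 difference was not tested.

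**Figure D3:**
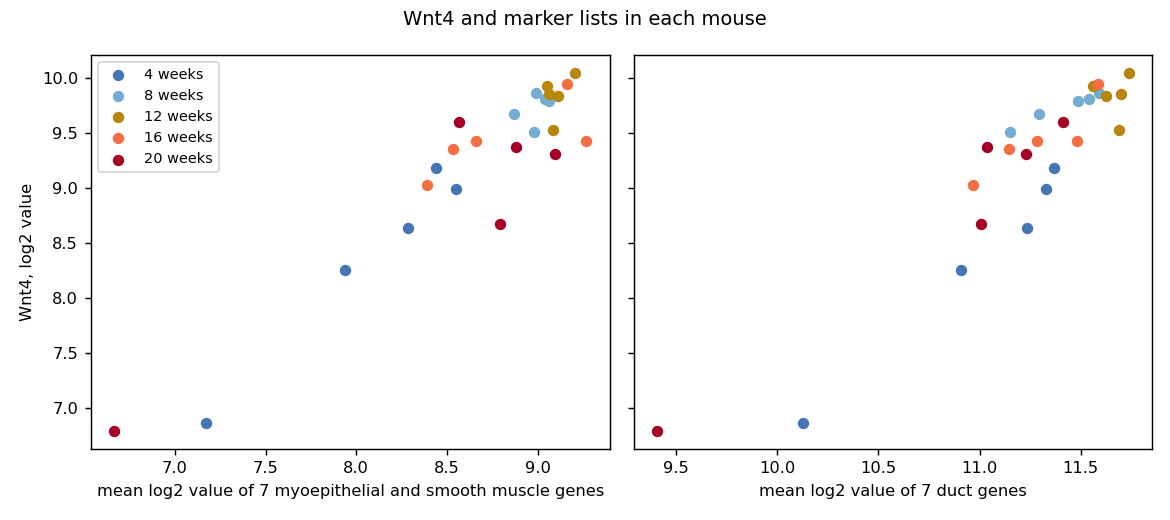
Log2 value of Wnt4 in each of the 25 mice (vertical axis) against the mean log2 value of 7 myoepithelial and smooth muscle genes (left) and 7 duct genes (right), colored by age. Mouse 4 at 4 weeks (Wnt4 at 6.86) and mouse 3 at 20 weeks (6.79) lie lowest on all axes. These arrays also held the lowest value for 15% and 32.5% of all expressed genes.

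The promoter of Wnt4 is shown because this gene was the only member called higher against 4 weeks with all arrays. That of Axin2 is shown because it is the standard readout of the canonical branch. RefSeq promoters (build GRCm38.p6) were found for 33 of the 53 genes, with 38 windows of 250 bases before the start. Capitals mark the GC box GGGCGG, which Sp1-type factors bind, on either strand.
Wnt4, chr4:137277385-137277634, plus strand: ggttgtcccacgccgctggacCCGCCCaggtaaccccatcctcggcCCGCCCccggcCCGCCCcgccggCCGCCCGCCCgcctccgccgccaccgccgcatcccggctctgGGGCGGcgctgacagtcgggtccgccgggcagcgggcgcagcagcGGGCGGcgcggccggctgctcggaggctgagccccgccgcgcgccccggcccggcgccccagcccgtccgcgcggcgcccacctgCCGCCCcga
Axin2, chr11:108920099-108920348, plus strand: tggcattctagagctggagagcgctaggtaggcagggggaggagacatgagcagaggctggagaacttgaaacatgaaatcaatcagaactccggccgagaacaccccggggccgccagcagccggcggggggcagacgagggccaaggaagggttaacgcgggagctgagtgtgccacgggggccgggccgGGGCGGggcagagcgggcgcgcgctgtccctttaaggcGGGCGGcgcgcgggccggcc
The Wnt4 window held 8 GC boxes, a pair of which overlap, and 85.2% G and C bases, and the Axin2 window 2 GC boxes and 69.2%. At least 1 GC box stood in 68.4% of the member windows and in 32.7% of all 32851 RefSeq windows of this length. The member windows also held more G and C bases, with a median of 67.4%, against 52.4% in all windows. The TCF/LEF core, searched on both strands as CTTTGAA and as CTTTGAT, and likewise as CTTTGTA and as CTTTGTT, was in neither of these windows. It stood in 4 member windows, those of Dkk1, Fzd7, Wnt11 and 1 of the 3 starts of Wnt5b (10.5%, against 14.8% of all windows). The 2 of these genes with an expressed probe set are shown with the core in capitals.
Fzd7, chr1:59481897-59482146, plus strand: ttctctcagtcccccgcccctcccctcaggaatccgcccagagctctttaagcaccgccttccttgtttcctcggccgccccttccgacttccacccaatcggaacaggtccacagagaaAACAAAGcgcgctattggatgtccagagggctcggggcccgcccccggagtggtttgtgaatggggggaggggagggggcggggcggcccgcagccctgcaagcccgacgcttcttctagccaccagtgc
Wnt5b, chr6:119449387-119449636, minus strand: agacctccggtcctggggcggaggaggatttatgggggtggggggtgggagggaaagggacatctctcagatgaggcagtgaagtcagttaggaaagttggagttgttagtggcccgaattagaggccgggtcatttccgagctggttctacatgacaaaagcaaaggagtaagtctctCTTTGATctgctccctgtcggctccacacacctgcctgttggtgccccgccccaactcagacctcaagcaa
The match in Fzd7 lies 130 bases and that in Wnt5b 71 bases before the start. These are matches of letters, and binding was not measured.

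None of the other 18 Wnt ligands passed the test at any age with all arrays. Wnt16, a ligand best known in bone, had means of 5.02, 4.96, 4.76, 4.92 and 5.01 from 4 to 20 weeks, and its difference at 12 weeks was -0.26 (SE 0.15, adjusted p = 0.371). Its 12-week values included a low one of 4.30 in mouse 5. Wnt3, a canonical ligand, had means of 4.66, 4.52, 4.52, 4.40 and 4.82, with an SD of 0.68 at 20 weeks, against 0.12 at 4 weeks, and its highest value, 5.93, in mouse 3 at 20 weeks. Its difference at 16 weeks was -0.25 (adjusted p = 0.708), and without the 3 arrays with the largest actin difference it fell there by 0.30 (adjusted p = 0.00984) and at 20 weeks by 0.27 (adjusted p = 0.0192, with all arrays a difference of 0.16). Wnt5a, a ligand of the non-canonical branch named here after its values were seen, was 0.30, 0.32 and 0.31 below its 4-week mean at 8, 12 and 16 weeks, with adjusted p between 0.346 and 0.528. It fell at 12, 16 and 20 weeks without the 3 arrays, by 0.32, 0.36 and 0.35 (adjusted p = 0.0352, 0.0353 and 0.0493), where the 20-week difference with all arrays was -0.07. The highest values of Wnt5a were 4.78 in mouse 3 at 20 weeks and 4.50 in mouse 5 at 4 weeks. The 4-week mean of Wnt7a likewise rested on 1 mouse, with 4.76 in mouse 4 and 3.47 to 3.61 in the others.

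Among the receptors Fzd2 passed at 16 weeks, but at values near the lower limit. It had no expressed probe set, and its gene value was 2.08, 2.11, 2.02, 1.90 and 2.08 at 16 weeks, against 2.33, 2.40, 2.28, 2.10 and 2.10 at 4 weeks. On the log2 scale the fitted difference was -0.20 (SE 0.053, adjusted p = 0.0362). The groups overlapped. The high 4-week values came from single probe sets: 1418533_s_at read 3.58 and 3.15 in mice 2 and 3 and 2.67 to 2.68 in the other 3, while 1418534_at read 3.32 in mouse 1 and 2.62 to 2.68 in the other 4. The suffix of 1418533_s_at marks probes that can match more than 1 transcript. Tested singly, neither passed (adjusted p = 0.155 and 0.404). The call was lost without mouse 1, 2 or 3 at 4 weeks or mouse 1, 3, 4 or 5 at 16 weeks. Without mouse 3 at 20 weeks Fzd2 was also called lower at 12 weeks (adjusted p = 0.0198), and without the 3 arrays with the largest actin difference at 8, 12, 16 and 20 weeks (adjusted p = 0.0432, 0.0137, 0.00755 and 0.0329).

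Fzd4, which also serves as the receptor of norrin in retinal vessels, did not pass, although every mouse of 12 and 16 weeks lay below every mouse of 4 weeks. It was 5.49 (median of 5 mice, range 5.35 to 5.55) at 12 weeks and 5.34 (5.13 to 5.50) at 16 weeks, against 5.78 (5.65 to 5.86) at 4 weeks. The log2 fold changes were -0.27 and -0.42 (SE 0.14, adjusted p = 0.268 and 0.111). Without the 3 arrays with the largest actin difference both were calls, at -0.27 (adjusted p = 0.0400) and -0.41 (adjusted p = 0.0157). The expressed probe sets of Fzd4 did not move together. A single probe set separated the ages, with 6.74 to 7.30 at 4 weeks. It read 5.93 to 6.46 at 12 weeks and 5.98 to 6.51 at 16 weeks. The others overlapped the 4-week mice at both ages. At 12 weeks they read 6.74 to 6.89 against 6.47 to 7.43, and 3.22 to 3.46 against 3.31 to 3.44. Fzd8 differed by -0.41 at 12 weeks and -0.47 at 16 weeks (adjusted p = 0.115 and 0.111), with overlapping mice, and without the 3 arrays it fell at 16 weeks (adjusted p = 0.0419). Fzd6, a receptor of planar polarity, went the other way. Its 5 values at 12 weeks, 4.91 to 5.64, lay above those at 4 weeks, 4.29 to 4.89 (difference 0.52, adjusted p = 0.113). Without mouse 3 at 20 weeks it rose (adjusted p = 0.0204). Its expressed probe sets did not move together. At 12 weeks 1417301_at read 5.92 to 6.68, against 4.62 to 5.86 at 4 weeks. At 12 weeks 1448662_at read 4.61 in mouse 2 and 3.89 to 3.91 in the others, against 3.92 to 3.96 at 4 weeks. Fzd4, Fzd6 and Fzd8 were named after their values were seen.

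The other frizzled receptors and both co-receptors did not pass with all arrays. Fzd7, a receptor often found in progenitor cells, had means of 7.88, 8.24, 8.34, 7.95 and 7.97 from 4 to 20 weeks, with a difference at 12 weeks of 0.46 (95% interval -0.045 to 0.960). Fzd1 had means of 7.71, 7.66, 7.93, 7.33 and 7.11, and its value in mouse 3 at 20 weeks was 5.65, against 6.90 to 8.32 in the other 4 mice of that age. Fzd5 was 0.16 to 0.34 above its 4-week mean at the later ages (adjusted p between 0.419 and 0.703). The co-receptor Lrp6 was higher by 0.47 at 8 weeks (SE 0.18, adjusted p = 0.203). It passed there only when mouse 1 at 4 weeks, the highest of its age at 6.75, was left out. Its probe set 1428500_at read 8.39 to 9.54 at 8 weeks, against 7.71 to 8.84 at 4 weeks. The other, 1451022_at, read 4.08 to 4.68 against 4.13 to 4.66. Lrp5 differed by between -0.15 and 0.13.

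Of the secreted Wnt binders, Sfrp1 had 5 probe sets that did not move together. Averaged over the 4 expressed ones it was 0.51, 0.55 and 0.51 above 4 weeks at 12, 16 and 20 weeks (SE 0.21, adjusted p = 0.156, 0.195 and 0.270). Singly, 1428136_at rose at 12 weeks by 1.1 (adjusted p = 0.0304), with 6.37 to 7.09 at 12 weeks against 5.08 to 6.13 at 4 weeks. At the same age 1448395_at lay lower by 0.63 (adjusted p = 0.0552), with 4.15 to 4.38 against 4.45 to 5.58. The remaining expressed probe sets, 1438620_x_at and 1460187_at, spanned 2.82 and 3.05 log2 units within the 20-week mice, and the suffix of 1438620_x_at marks probes that can match other transcripts. Which transcripts these probe sets read was not tested. The mean of Sfrp4 lay between 3.73 and 3.97 and that of Sfrp5 between 3.54 and 3.83 over the 5 ages, and neither passed at any age with all arrays. Sfrp4 fell at 8, 12 and 16 weeks without the 3 arrays with the largest actin difference, by 0.079, 0.098 and 0.081 (adjusted p = 0.0445, 0.00997 and 0.0347). Sfrp5 was highest in mouse 3 at 20 weeks (4.75) and mouse 2 at 4 weeks (4.47), and 3.51 to 3.76 in the other 23 mice. Wif1, another binder of Wnt ligands, did not pass with all arrays and differed by 0.13 at 20 weeks. Without the 3 arrays the sign turned there, and it fell by 0.12 at 16 weeks and 0.13 at 20 weeks (adjusted p = 0.0207 and 0.0232).

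Dkk3, a divergent Dickkopf protein that, unlike Dkk1, is not known for binding the co-receptors, was the member that passed the F-test (adjusted p = 0.0234). Its values were 4.38, 4.38, 4.25, 4.38 and 4.38 at 4 weeks, 4.15, 3.82, 4.34, 4.22 and 4.51 at 8 weeks, and 4.41, 4.80, 4.87, 4.56 and 4.38 at 12 weeks. They were 4.33, 4.30, 4.32, 4.36 and 4.22 at 16 weeks and 4.42, 4.56, 5.0, 4.94 and 5.0 at 20 weeks. The 12- and 20-week means stood above the others, and the 5 mice of 20 weeks lay above all of 4 weeks. The difference from 4 weeks was 0.25 at 12 weeks (adjusted p = 0.252) and 0.43 at 20 weeks (SE 0.12, adjusted p = 0.0630), and neither passed. Mice 3 and 5 at 20 weeks, both at 5.0, were on arrays with the largest actin difference. Without the 3 arrays with the largest actin difference the 20-week difference was 0.29 (adjusted p = 0.0999). The F-test call was lost without mouse 4 at 20 weeks. The signal came from 1 of its 2 probe sets, 1448669_at, as 1417312_at stayed between 2.29 and 2.69. Dkk1, Dkk2 and Dkk4 had no expressed probe set.

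With all arrays the R-spondin and Lgr genes did not pass at any age. Without the 3 arrays with the largest actin difference Lgr4 rose at 20 weeks (0.73, adjusted p = 0.0468), Rspo3 fell at 16 and 20 weeks (adjusted p = 0.0436 and 0.0380), and Lgr5, Rspo1, Rspo2 and Rspo4, which have no expressed probe set, fell at 1 or more ages by at most 0.10. Lgr4, the widely expressed R-spondin receptor, had means of 7.87, 8.45, 7.90, 8.23 and 7.99 from 4 to 20 weeks, with its largest difference, 0.58, at 8 weeks (95% interval -0.10 to 1.26). Lgr6 was -0.32 from 4 weeks at 8 weeks, and mouse 2 at 4 weeks, at 5.33, set much of that. Lgr5, the stem cell marker of several epithelia, had no expressed probe set and means between 2.90 and 3.02. Rspo3, the only R-spondin with an expressed probe set, had means between 3.54 and 3.82. Axin2 had no expressed probe set, means of 2.32, 2.30, 2.30, 2.34 and 2.32 and differences of -0.018, -0.015, 0.025 and 0.0076, with 95% intervals that lay between -0.098 and 0.104. At that level the array gives no measure of how much Axin2 RNA was present.

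The receptor ubiquitin ligases Rnf43 and Znrf3 had their highest means at 8 and 12 weeks. Rnf43 was 6.07 to 7.56 (median 7.15) in the 10 mice of 16 and 20 weeks, against 7.30 to 7.88 (median 7.58) in the 10 mice of 8 and 12 weeks. The difference was -0.55 (SE 0.16, unadjusted p = 0.00199, adjusted p = 0.112), and the groups overlapped. Znrf3 was 6.08 to 7.40 (median 6.58) at 16 and 20 weeks, against 6.93 to 7.44 (median 7.11) at 8 and 12 weeks, a difference of -0.43 (unadjusted p = 0.010, adjusted p = 0.201). Without the 3 arrays with the largest actin difference these were -0.43 (adjusted p = 0.210) and -0.20 (adjusted p = 0.561). Rnf43 in mouse 5 at 20 weeks (6.07) lay 1.04 below the next of its age.

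In this comparison of 16 and 20 with 8 and 12 weeks, which leaves out the 4-week mice, 0 of 53 members rose and 0 fell, where 0.0055% and 0.286% of all genes did. At an unadjusted p under 0.05, 8 were lower (Fzd1, Fzd4, Fzd6, Lrp5, Rnf43, Wnt4, Wnt5b and Znrf3) and 1 was higher (Wnt3a). The 8 are 15.1% of the members, against 11.6% of all genes, and the 1 is 1.89%, against 4.2%. The median difference was 0.043 over the 33 expressed members, against -0.11 over all expressed genes. Ctnnb1 had the lowest estimate, -0.75, with a 95% interval of -1.60 to 0.10.

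**Figure D4:**
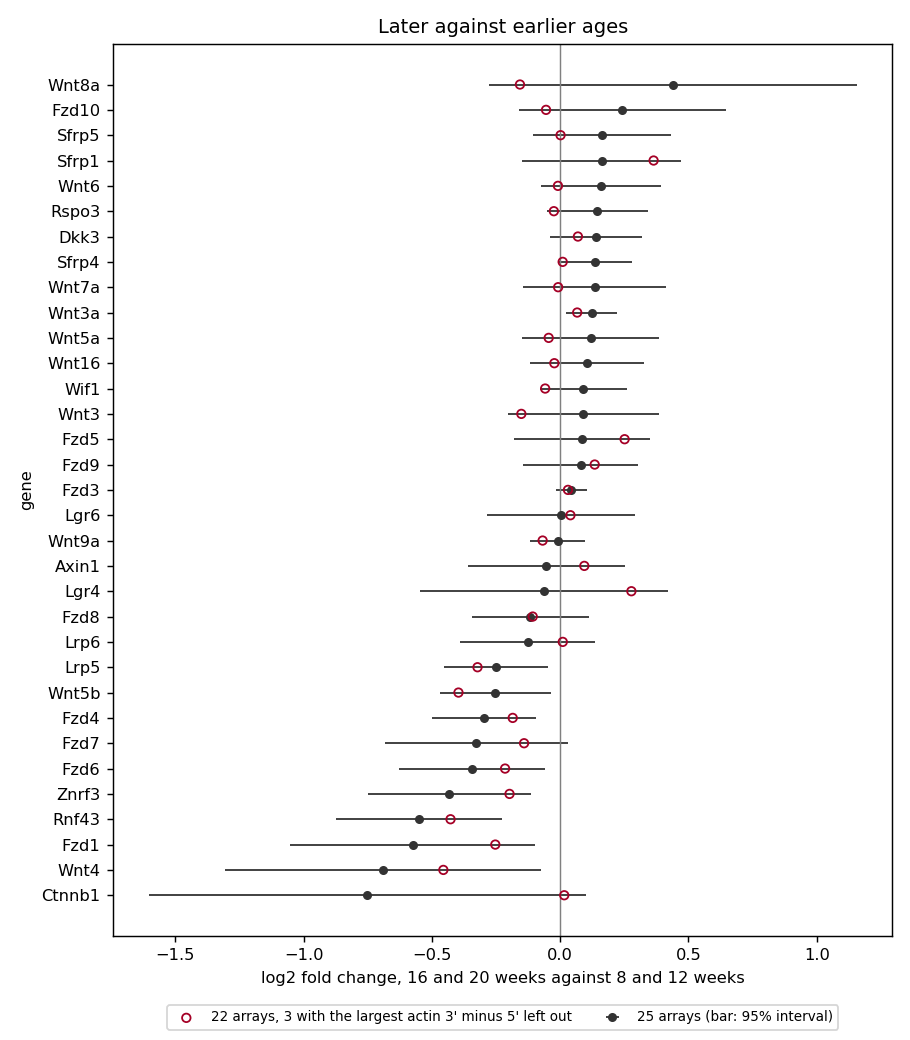
Log2 fold change of 16 and 20 weeks against 8 and 12 weeks (horizontal axis) of the 33 genes with an expressed probe set (rows), as filled points with 95% intervals for all 25 arrays, and as open circles without the 3 arrays with the largest actin 3′ minus 5′ difference. Ctnnb1 lies at -0.75 with all arrays and at 0.016 without these 3.

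Ctnnb1, the gene of beta-catenin, did not pass at any age, and its probe sets differed with the array. Its gene value was 9.57, 9.85, 9.66, 8.88 and 9.44 at 4 weeks, 8.75, 7.21, 8.18, 8.29 and 9.70 at 16 weeks, and 10.01, 9.74, 5.84, 9.32 and 7.38 at 20 weeks. Differences from 4 weeks were -1.05 at 16 weeks and -1.02 at 20 weeks (SE 0.58, adjusted p = 0.446 and 0.548). The 3 lowest values, in mice 3 and 5 at 20 weeks and mouse 2 at 16 weeks, were on the 3 arrays with the largest actin difference. Probe set 1420811_a_at lay between 10.8 and 12.0 over the 25 arrays. Its 3 lowest values were also on those 3 arrays, at 10.77 in mouse 2 at 16 weeks and 10.79 and 10.82 in mice 5 and 3 at 20 weeks. The other probe sets ranged more widely, 1430533_a_at from 2.92 to 8.63 and 1450008_a_at from 3.76 to 9.51, both lowest in mouse 3 at 20 weeks. Without those 3 arrays the differences were -0.75 at 16 weeks (adjusted p = 0.0559) and 0.21 at 20 weeks (adjusted p = 0.611). The part of RNA integrity in the Ctnnb1 values was not tested.

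**Figure D5:**
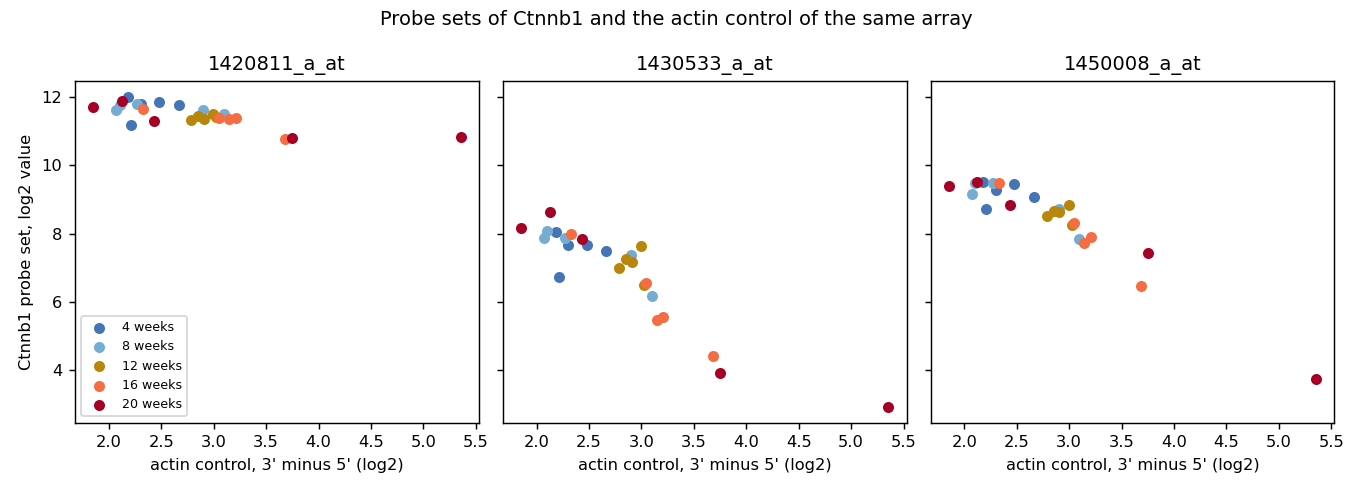
Log2 value of the 3 Ctnnb1 probe sets (panels) in each array against the difference between 3′ and 5′ actin control probe sets of the same array, in log2 units, colored by age. At the array with a difference of 5.36 the probe set on the left reads 10.8 and the other two 2.92 and 3.76.

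Axin1, the scaffold of the destruction complex, was higher at 12 weeks in all 5 mice (5.80 to 6.31) than in the 4-week mice (4.86 to 5.78), by 0.52 (SE 0.21, adjusted p = 0.139). It did not pass with all arrays, and it rose without the 3 arrays with the largest actin difference (adjusted p = 0.0367). Of its probe sets 1426967_at, at 3.74 over all arrays, was higher by 0.73 at 12 weeks and 1426966_at by 0.31. Mouse 4 at 4 weeks was the lowest of its age for both.

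Leaving out the 3 arrays together raised the counts of members and of all genes alike. Mice 3 and 5 at 20 weeks and mouse 2 at 16 weeks are then missing. The 20-week values rest on mice 1, 2 and 4 alone. At 8 weeks 1 member rose (Wnt4) and 4 fell, where 9.38% of all genes rose and 7.13% fell. Of the 4, Sfrp4 had an expressed probe set and the other 3 (Dkk2, Fzd2 and Rspo4) had none. At 12 weeks 5 rose (Axin1, Fzd6, Sfrp1, Wnt4 and Znrf3) and 15 fell, against 19.6% and 23.7%. Of those 15, 4 had an expressed probe set (Fzd4, Fzd10, Sfrp4 and Wnt5a), and 11 had none and lay near the lower limit (Dkk2, Dkk4, Fzd2, Lgr5, Rspo1, Rspo2, Rspo4, Wnt1, Wnt2, Wnt2b and Wnt10b). At 16 weeks 2 rose, Sfrp1 and Wnt4, and 12 fell, against 11.9% and 21.4%. The 7 of these with an expressed probe set were Fzd4, Fzd8, Rspo3, Sfrp4, Wif1, Wnt3 and Wnt5a, and the other 5 had none. At 20 weeks 4 rose (Fzd5, Lgr4, Lrp6 and Sfrp1) and 11 fell, against 12.9% and 19.1%, and 7 of the 11 had an expressed probe set (Fzd10, Rspo3, Wif1, Wnt3, Wnt5a, Wnt5b and Wnt8a). Wnt8a had one only through high values on arrays that are left out here. In the other mice it was 2.41 to 3.22, below the cutoff. Wnt4 was among the calls at 8, 12 and 16 weeks (log2 fold changes 1.34, 1.45 and 1.15), and Sfrp1 at 12, 16 and 20 weeks (0.51, 0.59 and 0.87).

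Other genes of the pathway were read from 6 lists, with all arrays. Of all genes 1.48%, 5.66%, 1.71% and 1.14% rose at 8, 12, 16 and 20 weeks. At these ages 0.78%, 1.36%, 1.68% and 1.52% fell. Of 6 genes for secretion and release of ligands (such as Porcn and Wls) and of 13 for non-canonical receptors and polarity, 0 rose and 0 fell at any age. Of 9 other extracellular inhibitors 1 fell at 16 and 20 weeks, Sostdc1, an antagonist of Lrp5, Lrp6 and bone morphogenetic proteins (by 1.2 at both ages, adjusted p = 0.0235 and 0.0277). Of 23 genes of cytoplasmic transduction Dvl1, which passes the signal on from frizzled, rose at 8, 12 and 16 weeks by 0.65, 0.66 and 0.62. In the same list Amer1 and Dact1 fell at 12 weeks and Nkd2 at 16 weeks, by 0.29, 0.17 and 0.50, and Dact1 had no expressed probe set. Of 13 genes of nuclear transduction Bcl9l, a beta-catenin cofactor, rose at 12 weeks by 1.03 (adjusted p = 0.0450). Of 12 textbook targets 1 fell, at all 4 ages: Ccn4, a matricellular protein also made by fibroblasts, by 1.00, 1.00, 0.98 and 0.80. It had no expressed probe set over all arrays, with means of 3.75 at 4 weeks and 2.75 to 2.95 at the later ages. Over the same ages 4 or 5 of 9 fibroblast markers fell, and the mean of these 9 genes was 7.75 to 8.15 at 4 weeks, 6.69 to 7.02 at 8 weeks, 6.39 to 6.88 at 12 weeks, 5.82 to 6.83 at 16 weeks and 5.89 to 7.02 at 20 weeks, all 9 with an expressed probe set. Of 4 genes of dividing cells 3 fell at each age, and their part and that of fibroblasts in the Ccn4 difference was not tested.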

How the data were processed

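RNA of 25 mice was measured on 25 Affymetrix mouse whole-genome arrays. The authors deposited log2 values, 1 per probe set and array for 45101 probe sets, made with GCRMA according to the methods and with RMA according to the submitters' processing notes, whose version is not given in the sources used here. They were used without further normalization, and 0 sample columns were left unused. In the array annotation 34958 probe sets carry 1 symbol and were kept, whereas 932 carry several symbols and 9211 have no entry. Gene values average the expressed probe sets of a gene, and all of its probe sets if none is expressed.

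The 5 ages entered a single limma fit (version 3.58.1, R 4.3.3) with two-sided tests and Benjamini-Hochberg adjustment over 18194 genes, and passing, rising or falling means an adjusted p under 0.05. Standard errors and 95% intervals are those of the fit. The precision is limited by 5 arrays per age, and by fewer where arrays were left out. Orthogonal polynomials of age (degree 1 to 4) gave B-statistics, for which 0.01 of genes were assumed to change beforehand, and the threshold of 1.5 is that of the methods. The fit was tested on simulated data. Mice of the same age came from at least 2 litters, and which mouse came from which litter is not given. Same-numbered mice of different ages were checked for deviating together. Over 50 such pairs the correlation was -0.582 to 0.571 (median -0.043), so the numbers do not pair them. Alternatives were other ways of joining probe sets, quantile normalization, a filter on low values, a trended robust prior, weighting of arrays, blocking on replicate number, a prior share of 0.05, only the ages compared, and leaving out each array. Leaving out 3 arrays together was chosen after seeing the data.

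The members, the pathway and marker lists and the tests were chosen with earlier results of these data known. Named in full were the members past the threshold, up to 3 members with the highest mean in each family, Axin2 and Lgr5, and, of the up to 3 genes per pathway list with the smallest adjusted p, those that passed. The others named (Fzd3, Fzd4, Fzd6, Fzd8, Fzd10, Lrp5, Lrp6, Wif1, Wnt3a, Wnt5a, Wnt5b, Wnt7a, Wnt8a and others in lists of calls) were chosen after their values were seen. Promoter sequences are from RefSeq (GRCm38.p6), searched with Python 3.11.15. Figures were drawn with matplotlib 3.10.9.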

Additional observations from a re-analysis of the deposited data

Results flagged for a closer look

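For the 20 members named by rule, 100 groups of 5 mice were searched for a value far from the rest, where chance flags about 1 in 20, and 15 were found. At 4 weeks these were Axin1 in mouse 4 (4.86, others 5.62 to 5.78), Dkk3 in mouse 3 (4.25, others 4.38), and in mouse 2 Lgr6 (5.33, others 4.14 to 4.48), Sfrp5 (4.47, others 3.57 to 3.60) and Wnt16 (5.27, others 4.94 to 4.98). At 12 weeks they were Lgr4 in mouse 4 (8.79, others 7.59 to 7.87), Sfrp5 in mouse 2 (3.51, others 3.54 to 3.55) and Wnt16 in mouse 5 (4.30, others 4.77 to 4.93). At 16 weeks mouse 2 stood above the others for Lgr5 (3.02, others 2.89 to 2.92), Sfrp4 (3.95, others 3.73 to 3.76) and Sfrp5 (3.76, others 3.53 to 3.55), and mouse 5 for Fzd7 (8.61, others 7.57 to 7.87) and Sfrp1 (5.70, others 5.03 to 5.13). At 20 weeks they were Rnf43 in mouse 5 (6.07, others 7.10 to 7.32) and Sfrp5 in mouse 3 (4.75, others 3.54 to 3.75). Of the 15 values, 5 were on the 3 arrays with the largest actin 3′ minus 5′ difference, and 3 on that of mouse 2 at 4 weeks.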

How the results depend on the processing

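With array weights the members called were 3 at 8 weeks, 29 at 12 weeks (6 higher and 23 lower), 9 at 16 weeks and 16 at 20 weeks against 4 weeks, 1 between 16 and 20 and 8 and 12 weeks, 2 between successive ages, 13 by the F-test and 1 by the B-statistic. Of all genes the weights called 6.84% higher and 6.1% lower at 8 weeks, 20.5% and 34.4% at 12 weeks, 8.61% and 11.3% at 16 weeks, 13.5% and 22.4% at 20 weeks, and 1.05% and 2.57% between 16 and 20 and 8 and 12 weeks. Without the 3 arrays with the largest actin difference, a choice made after seeing the data, the counts were 5, 20, 14 and 15 at 8, 12, 16 and 20 weeks and 12 by the F-test. The shares of all genes at these ages are given above. For the F-test, the B-statistic and successive ages they were not computed in this fit or with array weights. Those counts are therefore not read as a result about the members. At 12 weeks the brightest probe set gave 2 calls (Sfrp1 and Wnt4), probe sets tested singly 2, a trend and robust prior 2 and only the ages compared 3. At 16 weeks the brightest probe set, probe sets tested singly and a filter to expressed genes gave 0, the last because Fzd2 is then not tested. Quantile normalization gave 1 call at 8 weeks (Wnt4) and 2 by the F-test, and a prior share of 0.05 gave 2 by the B-statistic. Leaving out 1 array at a time gave 0 to 1 calls at 8 weeks, 0 to 3 at 12 weeks, 0 to 2 at 16 weeks, 0 to 1 at 20 weeks and 0 to 3 by the F-test. The single calls at 8 weeks came without mouse 1 at 4 weeks (Lrp6) or mouse 3 at 20 weeks (Wnt4), and those at 20 weeks without mouse 2 at 8 weeks or mouse 1 at 20 weeks (Dkk3). Leaving out mouse 3 at 20 weeks gave the highest counts at 12 and 16 weeks and by the F-test. There 13.3% of all genes rose and 3.28% fell at 12 weeks, 4.09% and 3.21% at 16 weeks, and the F-test called 12.1%. For the other alternatives the shares of all genes were not computed, and their counts are not read as a result about the members. The replicate block left every count as it was (Wnt4 at 12 weeks 1.452, adjusted p = 0.0426), and the numbers do not pair the mice. The cause of these shifts was not tested. Among the single-gene values recomputed, 1 comparison per gene, signs turned in differences of 16 and 20 against 8 and 12 weeks: Axin2 (0.033) was -0.0072 after quantile normalization and -0.00023 without the 3 arrays, Lgr5 (0.068) was -0.0082 with array weights and -0.021 without the 3 arrays, Rspo3 (0.15) was -0.013 and -0.024, and Ctnnb1 (-0.75) was 0.016 without the 3 arrays. Of 177 values of single genes under the alternatives other than leaving out 1 array, 160 kept sign and side of the threshold. Of these genes only Wnt4 and Fzd2 passed with all arrays in the comparison used. Most of the 160 are thus values without a call that stayed without one, and the count does not measure how firm the calls are. Signals near the lower limit of the array, as in 20 of the 53 genes, limit what these data can show.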
